A study of Danio rerio with 4 samples.

Results

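The genes of immune and cytokine signalling described here were 75 genes of the 8793 that the Affymetrix Zebrafish Genome Array measured under 1 gene symbol each. They were taken by symbol, with names that begin like those of interleukins, chemokines and their receptors, TNF family proteins, Jak, Stat, Socs, NF-κB, Irf and Toll-like receptor proteins, MHC and C1q proteins, Mx and Isg proteins, myeloperoxidase or lysozyme. Of 90 probe sets (groups of short probes for 1 transcript) with such symbols, the probe set with the highest mean signal was used for each gene. A signal high enough to be tested (not among the dimmest 40% of probe sets by mean log2 signal) was found for 46 of the 75 genes. The other 29 had signals between 7.11 and 108 on all arrays, with a mean log2 signal below 6.22. These low values overlapped with those of the dimmest genes kept. At the edge of this filter, c1qtnf5 was the dimmest gene kept, with signals of 59.2, 74.3, 94.8 and 73.9 on normal 1, cold 1, normal 2 and cold 2, and tnfsf10l was the brightest gene left out, with 39.2, 101, 108 and 70.2. Taking genes by symbol also brought in relatives that only carry the name, such as the Irf2-binding proteins and the C1q-like proteins. These are pointed out below where their groups are described, but all counts and medians of the immune genes include them.

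Adult zebrafish, with an equal sex ratio in each group, were held at 28°C (normal) or cooled gradually and held at 10°C for 10 days (cold-acclimated), and RNA pooled from several brains was hybridized to each array. The sources used here do not give the strain or the number of brains per pool. Of the 4 arrays, 2 were labelled normal and 2 cold, and equal numbers make a set here, with normal 1 and cold 1 as set 1 and normal 2 and cold 2 as set 2. Where 4 signals of a gene stand together, their order is normal 1, cold 1, normal 2, cold 2. The RNA came from separate acclimation experiments, but nothing in the sources used here says which arrays shared one, and p-values here cover only pool-to-pool spread, part of which may be technical.

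Cytokines and chemokines are secreted proteins that leukocytes, glia and vessel cells use to call and direct each other. Many cytokine receptors pass their signal through Jak kinases to Stat factors, and Socs proteins, which Stat factors induce, shut that path down. Toll-like and TNF receptors act on NF-κB, which IκB proteins hold in the cytoplasm, and interferons act through Stat and Irf factors on antiviral and antigen-presenting genes. In the healthy brain the resident immune cells are microglia, the macrophages of the tissue, and few other leukocytes are found.

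The median signal of all probe sets lay between 95.9 and 102 on the arrays. Their trimmed means (2% of values cut at each end) lay between 242 on normal 1 and 255 on cold 1. These were within a set limit of 1.2-fold, so no further scaling was done. All 10 neuronal markers measured had signals of at least 575 on every array, and mbpa of myelin had signals from 8020 to 10605. Arrays of the same label were not the most alike. Of 9301 probe sets tested, 1414 differed by at least 2-fold between normal 1 and normal 2 and 1105 between cold 1 and cold 2, against 260 between cold 1 and normal 2, 579 between normal 2 and cold 2, 675 between normal 1 and cold 2 and 1295 between normal 1 and cold 1. Not every pair of unlike labels was thus closer than the pairs of like labels. The immune genes followed this order in part. Of the 46, 9 differed by at least 2-fold between the normal arrays and 8 between the cold arrays, whereas 0 did so between cold 1 and normal 2, 5 between normal 2 and cold 2, 6 between normal 1 and cold 2 and 10 between normal 1 and cold 1. The labels were kept as given, directions below follow them, and each comparison is also given by set.

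With the labels as given, no immune gene passed the test of cold against normal after correction for the number of probe sets. At an adjusted p under 0.05 from limma (a linear model with a variance shared across probe sets), 0 of the 46 genes were higher and 0 were lower, as for all 9301 probe sets (0% in each direction). At an unadjusted p under 0.05, 0 of the 46 were higher, against 0.194% of all probe sets, and 1 was lower, against 0.301%. In all, 46 of the 9301 probe sets had such a p. A threshold of 0.05 gives a far larger share when nothing changes, so the test by label called very little of any kind. The authors describe more sets of RNA samples than the 2 arrays per condition used here. With another test they reported genes changed in both directions, and they checked the direction of selected genes by quantitative RT-PCR. The median log2 fold change of the 46 genes was 0.04, and that of all 5982 genes kept by the filter was also 0.04. Both cold arrays lay above both normal arrays for 5 of the 46 genes (8.78% of all genes), and both lay below for 2 (5.47% of all genes). The 5 genes were c1ql3b, irf2bpl, irf1b, tnfsf10 and b2m, and the 2 genes were mhc1ufa and relb. Among the 5, c1ql3b and irf2bpl are relatives that only carry the name. The separation of b2m rested on array scale, as described below. That of tnfsf10 was small, with 88.0 on cold 2 against 84.5 on normal 2. Its other probe set, below the filter, overlapped between the labels. Only through its normal arrays did relb pass the filter, as its mean log2 signal on cold was 6.11 against a limit of 6.22. Some markers of epidermis also separated the labels. Of 7 such markers, 5 were on the array, none at 0, and their summed signal was 1250 in the normal pool and 1700 in the cold pool of set 1 and 1533 and 2203 in those of set 2. Most of the difference came from the keratin gene krt5, with 114, 496, 249 and 914 (adjusted p = 1.0 from limma). Both cold arrays were also above both normal arrays for krt4, with 78.9, 121, 117 and 160. The same held below the filter for epcam (58.6, 82.3, 40.2 and 95.6) and cldne (12.7, 20.0, 11.5 and 38.2). Only krt8, with 986, 981, 1115 and 995, overlapped between the labels. The part of such tissue in the values of the 7 genes was not tested.

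**Figure D1:**
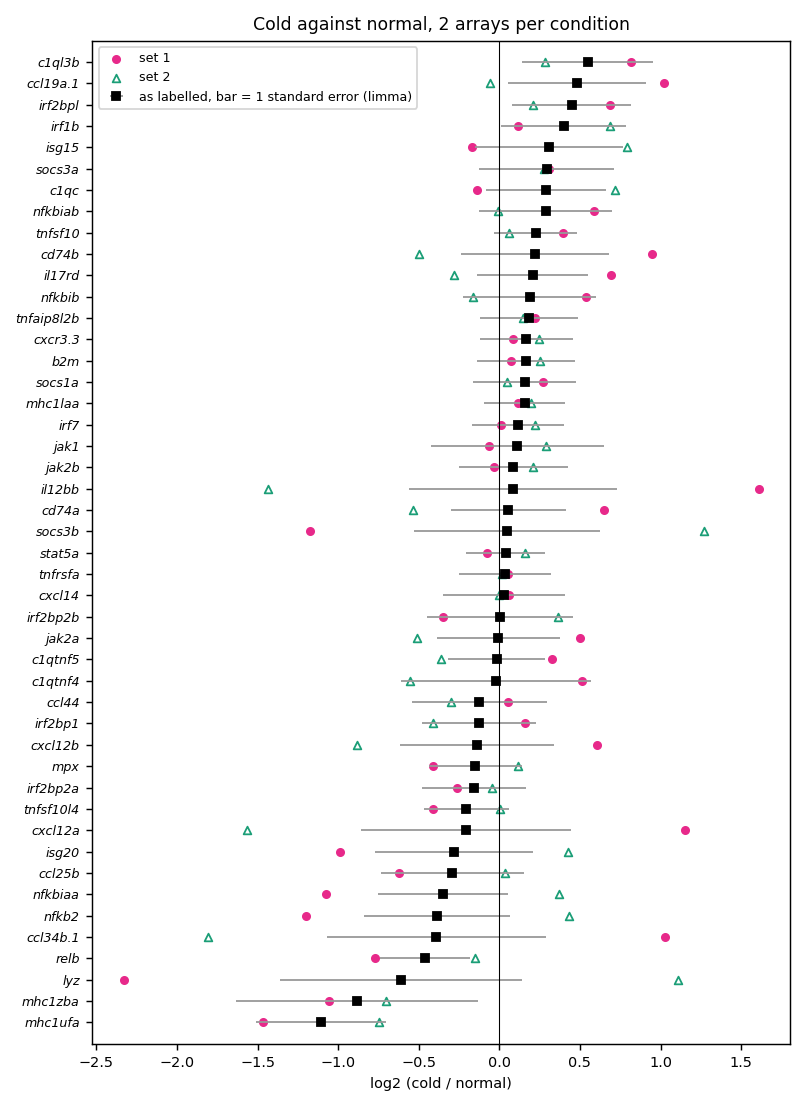
Log2 ratio of cold to normal for the 46 genes kept by the filter, sorted by the labelled change. Squares are the log2 fold change over 2 arrays per condition with a bar of 1 standard error from limma, circles are the ratio in set 1 and triangles that in set 2. The largest labelled change was that of mhc1ufa at -1.11, and for il12bb, socs3b, cxcl12a, ccl34b.1 and lyz the sets lay on opposite sides of 0.

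Within each set, where a ratio rests on 1 array per condition and has no replicate, some immune genes reached 2-fold in each direction. On cold 1, 4 of the 46 genes had a signal at least 2-fold higher than on normal 1 (8.61% of all genes) and 6 a signal at least 2-fold lower (5.0% of all genes). The 4 and 6 became 2 and 7 when the arrays were scaled by quantiles or by their medians, and 3 and 7 with the other probe set of cxcl12a, described below. On cold 2, 2 of the 46 were at least 2-fold higher than on normal 2 (2.49% of all genes) and 3 at least 2-fold lower (3.93% of all genes), or 2 and 2 with the other probe set of cxcl12a. The ratios had opposite signs in the 2 sets for 30 of the 46 genes, or 65.2%, where 71.2% of all genes did so. Across the 46 genes, the log2 ratios of the 2 sets had a Pearson's r of -0.55, and across all 5982 genes r was -0.66. Genes are not independent replicates, and these values are given as a description. Of the 46, 15 had a highest signal at least 2-fold the lowest, or 32.6%, against 27.0% of all genes.

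**Figure D2:**
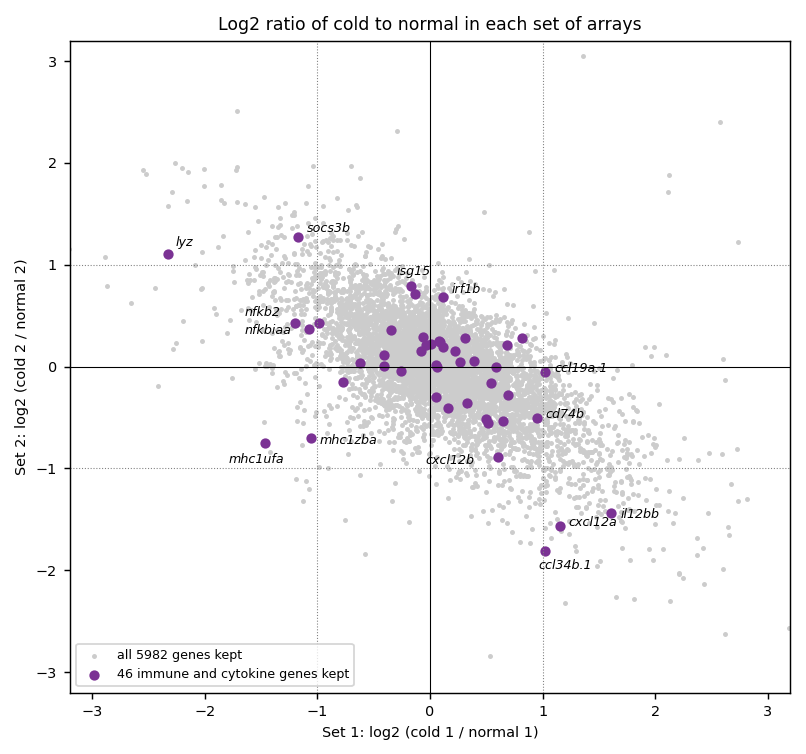
Log2 ratio of cold to normal in set 1 (x axis) against set 2 (y axis) for all 5982 genes kept (grey) and for the 46 immune and cytokine genes (purple), with dotted lines at 2-fold. The chemokines ccl34b.1 and cxcl12a and the cytokine subunit il12bb lie at the lower right, lyz and socs3b at the upper left, and mhc1ufa and mhc1zba at the lower left, below 0 in both sets. Beyond the axes lie 13 of all genes and no immune gene.

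Among the chemokines, which draw migrating cells through G protein-coupled receptors, 7 of 9 genes were kept. The ratios of all 7 had opposite signs in the 2 sets, as did those of 71.2% of all genes. Some of these signs rest on log2 ratios near 0. Such ratios were -0.004 for cxcl14, 0.04 for ccl25b and -0.06 for ccl19a.1 in set 2 and 0.05 for ccl44 in set 1. The gene ccl34b.1, expressed by a population of microglia in zebrafish, had signals of 779 (normal) and 1585 (cold) in set 1 and 1533 (normal) and 438 (cold) in set 2. It was high on cold 1 and normal 2 and low on normal 1 and cold 2, so that its signal was 2.03-fold the normal one in set 1 and 0.285-fold in set 2. Over both sets its log2 fold change was -0.39 with a standard error of 0.68 (limma, adjusted p = 1.0). Markers of red blood cells were in sum also high on cold 1 and normal 2. Of 12 such markers, 8 were on the array, none at 0, and 7 were kept, of which 4 were at least 2-fold higher on cold in set 1 and 4 at least 2-fold lower in set 2. Their summed signal was 13916, 19911, 21130 and 12184, and slc4a1a, the anion exchanger of red cells, had 141, 603, 587 and 60.7. Most of that sum was hbaa1, with 12037, 15330, 15571 and 10831. The order was not particular to blood. Summed signals of neuronal, astroglial, myelin and endothelial markers were also highest on cold 1 and normal 2, such as 414, 606, 595 and 552 for endothelium. Not every single marker followed its sum. The astroglial gfap had the reverse order, with 1069, 376, 357 and 666. In endothelium kdrl followed the sum (149, 347, 282 and 233), but fli1 was highest on cold 2 (103, 92.8, 105 and 125). The part of blood or of these other cell types in the values of ccl34b.1, cxcl12a, cxcl12b and il12bb was not tested. Summed signals of microglial and macrophage markers had another order. Of 15 such markers, 6 were on the array, none at 0, and their summed signal was 2810 in the normal pool and 1662 in the cold pool of set 1 and 2181 and 2633 in those of set 2, of which apoeb made up 2352, 1329, 1838 and 2285. In pooled tissue, fewer cells of a type and less RNA per cell cannot be told apart, and the part of cell numbers in the values of ccl34b.1 was not tested.

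The genes cxcl12a and cxcl12b encode ligands of the Cxcr4 receptors, which guide migrating cells in the embryo and keep blood stem cells in place. Signals of cxcl12a were 174 (normal) and 386 (cold) in set 1 and 554 (normal) and 187 (cold) in set 2, and those of cxcl12b were 139, 212, 323 and 175. Both genes were lowest on normal 1 and highest on normal 2, with cold over normal at 2.22-fold in set 1 and 0.338-fold in set 2 for cxcl12a, and at 1.52-fold and 0.542-fold for cxcl12b. A further probe set for cxcl12a gave the opposite order. Its signals were 332 in the normal pool and 158 in the cold pool of set 1 and 189 and 287 in those of set 2, or 0.475-fold in set 1 and 1.52-fold in set 2. The sources used here do not say what distinguishes these probe sets, so the direction for cxcl12a in each set is that of the probe set with the higher mean signal only. Among the 12 immune genes with several probe sets, cxcl12a was also the gene whose probe sets stood farthest apart in their log2 ratios. The receptor genes cxcr4a (71.5, 74.7, 65.7 and 64.9) and cxcr4b (34.6, 54.8, 30.4 and 34.4) were below the filter.

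Of the other chemokines, ccl19a.1 was low on 1 array. Its signal was 144 (normal) and 292 (cold) in set 1 and 263 (normal) and 253 (cold) in set 2. Normal 2 lay between the cold arrays, so that the labels overlapped, and its log2 fold change was 0.48 with a standard error of 0.43 (limma, adjusted p = 1.0). In mammals CCL19 brings T cells and dendritic cells to lymphoid tissue. The gene ccl25b had 518, 337, 295 and 303, highest on normal 1 by more than 1.5-fold. Signals of cxcl14, which in mammals is made by epithelia at rest, differed more by set than by label, with 1761, 1838, 1275 and 1271, and those of ccl44 were 394, 409, 331 and 269. The receptor gene cxcr3.3 had signals from 98.1 to 129, and ccl27a and ccl38a.5 were below the filter.

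**Figure D3:**
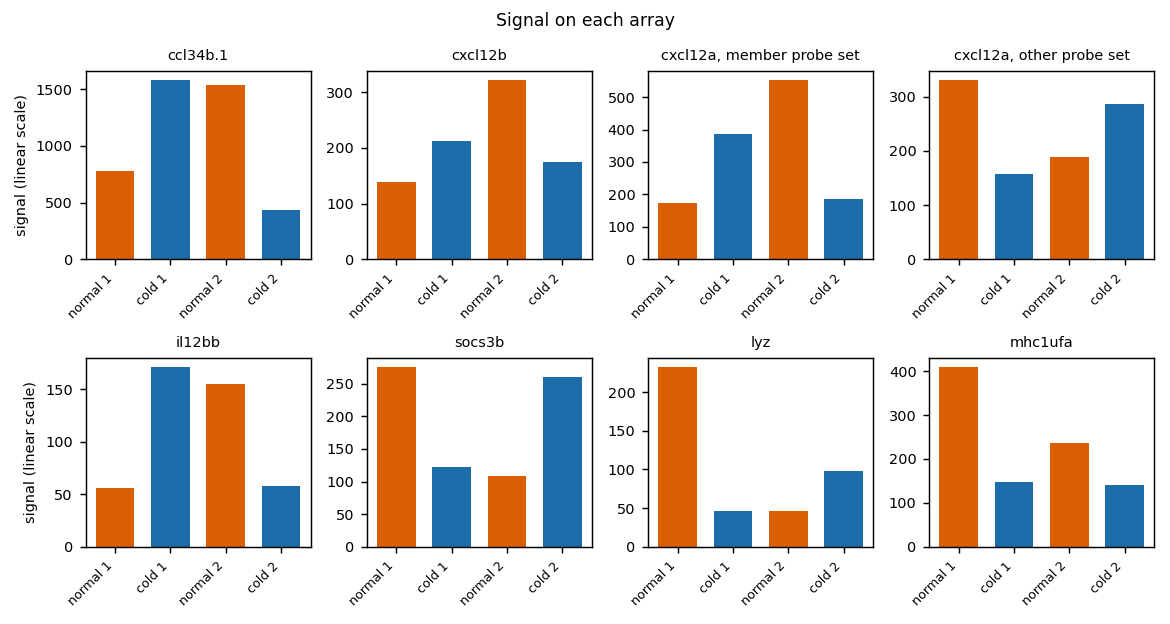
Signal on each array, on a linear scale from 0, for 6 further genes and for both probe sets of cxcl12a. Orange bars are arrays labelled normal and blue bars arrays labelled cold, 1 bar per array with no replicate. The signals of ccl34b.1, cxcl12b and il12bb and the main probe set of cxcl12a are higher on cold 1 and normal 2, the other cxcl12a probe set and socs3b show the reverse, lyz stands highest on normal 1, and mhc1ufa is lower on both cold arrays.

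Of the interleukin genes and their receptors, 2 of 4 were kept. The gene il12bb encodes a p40 subunit, which in mammals is shared by interleukin 12 and interleukin 23. It had signals of 56.2 in the normal pool and 171 in the cold pool of set 1 and 155 and 57.3 in those of set 2, a ratio of 3.05-fold in set 1 and 0.370-fold in set 2. On normal 1 and cold 2 it was thus dimmer than the median of all probe sets, and the labelled log2 fold change was 0.09 with a standard error of 0.64. The gene il17rd, known as Sef and an inhibitor of FGF signalling in the zebrafish embryo, had signals from 58.4 on normal 1 to 106 on normal 2. The receptor genes il13ra2 and il20ra were below the filter. Of 13 genes of the TNF family and of TNF-induced proteins, 4 were kept, and each spanned at most 1.35-fold over the arrays. The death ligand tnfsf10 (TRAIL) had 71.7, 94.1, 84.5 and 88.0, and its relative tnfsf10l4 had 83.8, 63.0, 81.5 and 81.7. The receptor gene tnfrsfa had 106, 110, 119 and 120. The gene tnfaip8l2b, whose mouse relative restrains immune receptors, had 105, 123, 128 and 142.

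The Jak kinases, which sit on cytokine receptors, had 3 of 3 genes kept and none that separated the labels. The signal of jak1 was 326 on normal 1 and 311 on cold 1, and 549 on normal 2 and 672 on cold 2, so that it differed more between the sets than within them. The paralogues jak2a (117, 166, 202 and 141) and jak2b (183, 178, 182 and 211) spanned 1.72-fold and 1.18-fold. Of the Stat factors, stat5a spanned 1.14-fold, with signals of 76.9, 72.8, 74.3 and 82.9, and stat3 was below the filter.

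The Socs inhibitors had 3 of 3 genes kept, and their orders over the arrays differed. The gene socs3b had signals of 276 (normal) and 122 (cold) in set 1 and 108 (normal) and 260 (cold) in set 2. Cold 1 and normal 2 were low and the other arrays high, so that the ratio was 0.443-fold in set 1 and 2.41-fold in set 2, and the labelled log2 fold change was 0.05 with a standard error of 0.58. Its paralogue socs3a did not follow it. The signals of socs3a were 307, 380, 218 and 264, or 1.24-fold in set 1 and 1.21-fold in set 2, and the labels overlapped, since both signals were lower in set 2. The gene socs1a had 92.5, 111, 130 and 134.

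In the NF-κB group, 5 of 6 genes were kept. The IκB genes nfkbiaa and nfkbiab, paralogues that encode the inhibitor induced by NF-κB itself, differed in their order over the arrays. The signal of nfkbiaa was 183 in the normal pool and 87.1 in the cold pool of set 1 and 98.9 and 128 in those of set 2, and that of nfkbiab was 685, 1027, 1110 and 1103. The former was thus highest and the latter lowest on normal 1. Signals of nfkbib were 411, 597, 556 and 496. The gene nfkb2 encodes the p100 precursor and relb its partner in the alternative NF-κB pathway. Both were highest on normal 1, at 169 for nfkb2 against 73.5, 67.5 and 90.9 on the other arrays in the same order, and at 101 for relb against 59.0, 90.0 and 80.9. The labels did not overlap for relb, whose log2 fold change was -0.46 with a standard error of 0.28 (limma, adjusted p = 1.0). The Toll-like receptor gene tlr21 was below the filter.

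Of 10 genes with Irf symbols, 6 were kept, and 4 of these encode Irf2-binding proteins or a relative of them, which are not interferon factors themselves. The interferon-regulated factor irf1b had signals of 274 (normal) and 297 (cold) in set 1 and 240 (normal) and 386 (cold) in set 2. Both cold arrays were above both normal arrays, and its log2 fold change was 0.40 with a standard error of 0.39 (limma, adjusted p = 1.0). Signals of irf7, a main inducer of interferon genes, were 113, 114, 90.3 and 105. Of the Irf2-binding relatives, irf2bpl had 998, 1606, 1514 and 1752, with no overlap between labels. Its log2 fold change was 0.45, with a standard error of 0.37 (limma, adjusted p = 1.0). Signals of irf2bp2a were 2481, 2068, 1823 and 1765. The genes irf1a, irf2a, irf5 and irf9 were below the filter.

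The interferon-induced effectors had 2 of 3 genes kept, and both were highest on normal 1 and lowest on normal 2. The ubiquitin-like modifier gene isg15 had signals of 244 in the normal pool and 217 in the cold pool of set 1 and 110 and 190 in those of set 2. The exonuclease gene isg20 had 188, 94.8, 66.5 and 89.4. The spread between the normal arrays was 2.22-fold for isg15 and 2.82-fold for isg20 and enclosed both cold arrays. The antiviral GTPase gene mxa was below the filter, with signals from 38.5 to 55.1.

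The genes of antigen presentation held the largest labelled changes, in class I MHC, with 6 of 12 genes kept. Class I molecules show peptides from inside the cell and are very variable between individuals, in zebrafish also in which genes a fish carries. The gene mhc1ufa had signals of 410 (normal) and 148 (cold) in set 1 and 236 (normal) and 141 (cold) in set 2. Both cold arrays were below both normal arrays, at 0.362-fold in set 1 and 0.596-fold in set 2, and the log2 fold change was -1.11 with a standard error of 0.41 (limma, unadjusted p = 0.031 and adjusted p = 1.0). It was the gene with the smallest p among the 46. The gene mhc1zba, of another class I lineage, had 485, 233, 129 and 79.1. It was also lower on the cold array of each set, at 0.480-fold and 0.614-fold, but cold 1 lay above normal 2, and its log2 fold change was -0.88 with a standard error of 0.75 (limma, adjusted p = 1.0). Without normal 1 the log2 fold change of mhc1zba was 0.07 and that of mhc1ufa was -0.71. The third class I gene kept, mhc1laa, had 69.0, 74.8, 75.9 and 87.1. The macrophage factor gene spi1b was also lower on both cold arrays (174, 93.2, 121 and 92.7) and the scavenger receptor gene marco higher (82.0, 113, 65.4 and 111), with adjusted p = 1.0 from limma for each. Of the other macrophage and microglia markers on the array, csf1ra was lower too (71.85, 54.4, 81.65 and 60.8, below the filter). The labels overlapped for apoeb, slc7a7 and lgals9l1. Over all genes kept, 5.47% were lower and 8.78% higher in this way.

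The shared light chain of class I, b2m, spanned 1.23-fold, with signals of 2002, 2109, 1711 and 2042. Both cold arrays were above both normal arrays, by 1.05-fold in set 1 and 1.19-fold in set 2, and the log2 fold change was 0.17 with a standard error of 0.30 (limma, adjusted p = 1.0). Cold 2 exceeded normal 1 for b2m (2042 against 2002) by less, in proportion, than its array median did (98.7 against 95.9). The separation of b2m thus rested on array scale, and its log2 fold change was 0.09 after quantile normalization. The genes cd74a and cd74b encode the invariant chain, which escorts class II MHC molecules. Signals of cd74a were 2279 in the normal pool and 3570 in the cold pool of set 1 and 4331 and 2985 in those of set 2, and those of cd74b were 936, 1802, 1274 and 901. For each of them cold was above normal in set 1 (1.57-fold and 1.93-fold) and below it in set 2 (0.689-fold and 0.707-fold). The class II genes mhc2d4b, mhc2dcb and mhc2daa and the class I genes mhc1uda, mhc1uka and mhc1zca were below the filter. Among them, mhc2daa (12.4, 36.3, 17.2 and 27.9) and mhc1zca (18.2, 18.7, 15.2 and 18.3) were higher on both cold arrays, where the ratios rest on very low values. Lower on both cold arrays were mhc1uda (63.8, 41.3, 59.3 and 45.8) and mhc1uka (39.6, 36.4, 53.9 and 37.6). A further probe set of mhc1uka overlapped between the labels.

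The C1q family had 4 of 4 genes kept, and only c1qc among them belongs to the classical complement. It encodes a chain of C1q, which macrophages and microglia make, and had signals of 208 (normal) and 189 (cold) in set 1 and 150 (normal) and 246 (cold) in set 2. The gene c1ql3b, whose mouse counterpart is a secreted synaptic protein of neurons, had 162, 285, 262 and 318. Both cold arrays were above both normal arrays, and the log2 fold change was 0.55 with a standard error of 0.41 (limma, adjusted p = 1.0), the highest labelled value among the 46 genes. Summed signals of the neuronal markers lay in the same order on the first 3 arrays but not on cold 2, with 21394 in the normal pool and 31467 in the cold pool of set 1 and 29138 and 25149 in those of set 2, and their part in the value of c1ql3b was not tested. The gene c1qtnf4 had 553, 788, 398 and 271.

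Of the granulocyte genes, lyz differed most. It encodes lysozyme, which neutrophils and macrophages carry, and had signals of 233 (normal) and 46.4 (cold) in set 1 and 45.7 (normal) and 98.7 (cold) in set 2. The ratio was 0.199-fold in set 1 and 2.16-fold in set 2. Signals of lyz on cold 1 and normal 2 were below the median of all probe sets, and that on cold 2 was just below it (98.65 against 98.74). Its log2 fold change was -0.61 with a standard error of 0.75 (limma, adjusted p = 1.0) and became 0.57 without normal 1. The myeloperoxidase gene mpx, which defines zebrafish neutrophils, had 104, 77.9, 98.6 and 107, and another probe set kept for it had 85.1, 86.4, 81.0 and 79.4, with cold 1 highest instead of lowest. Of 8 neutrophil markers, which include lyz and mpx, 6 were on the array, none at 0. Their summed signal was 2134, 418, 403 and 3457, and most of it on normal 1 and cold 2 came from the collagenase gene mmp13a, which other cells also make, with 1417, 69.4, 57.8 and 2691. The listed marker mmp9 was also high on normal 1 and cold 2, with 230, 69.9, 70.2 and 400. Signals of ncf1 (92.7, 95.1, 70.9 and 105) and cpa5 (58.6, 58.8, 59.3 and 56.2) did not have this order. The signals of 6 of 9 markers of all leukocytes summed to 2055, 1753, 1891 and 2466, and ptprc (CD45) among them was below the filter, as were all 3 lymphocyte markers on the array. The part of leukocyte numbers in the values of lyz was not tested.

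**Figure D4:**
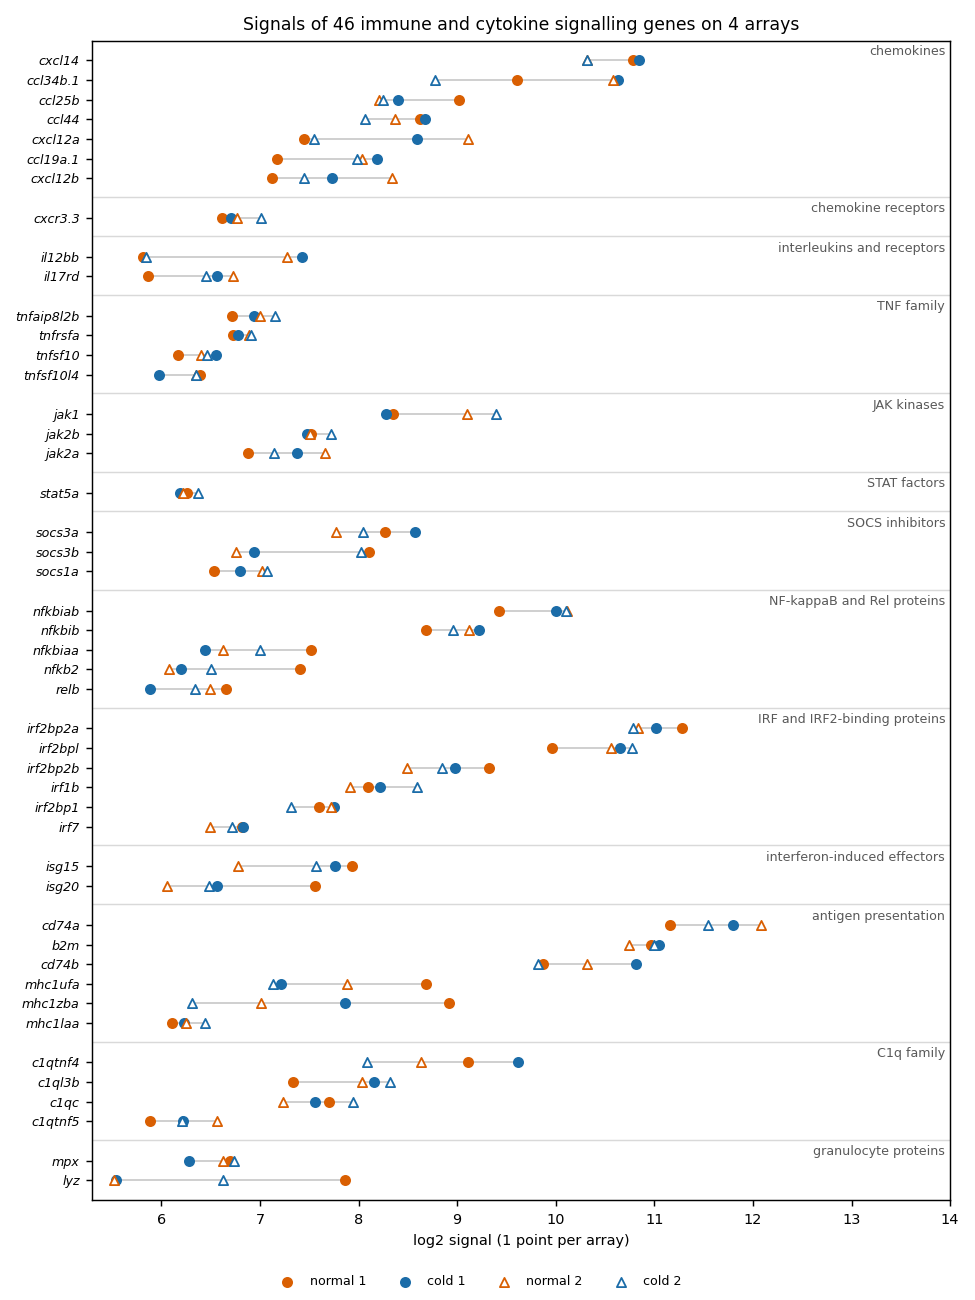
Log2 signal of each of the 46 genes kept, by role, with 1 point per array (orange normal, blue cold, filled circles set 1, open triangles set 2) and a grey line over their range. Points are compared along a row only, since probe sets differ in how they bind. For most genes the colours are mixed along the row, and lyz and mhc1zba have the widest ranges, at 5.10-fold and 6.13-fold.

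Several immune genes stood out on normal 1. A signal at least 1.5-fold above that on each other array was found on normal 1 for 6 of the 46 genes (3.84% of all genes), on cold 1 for 0 (2.41% of all genes), on normal 2 for 1 (0.903% of all genes) and on cold 2 for 0 (1.19% of all genes). This threshold was chosen after the values were seen, and the counts carry no test. The 6 genes were lyz, mhc1zba, isg20, nfkb2, mhc1ufa and ccl25b, and the gene on normal 2 was cxcl12b. Of these, lyz passed the filter on mean signal only through normal 1, with 46.4, 45.7 and 98.7 on the other arrays. Outside the 75 genes, the proteasome activator gene psme1, whose product favours the making of class I peptides, had 518 on normal 1 against 221, 149 and 194, and psme2 had 395 against 289, 207 and 167. Both were named after their values were seen, and other genes of the class I pathway were lowest on normal 1, such as calr (158, 547, 362 and 365) and psmb8a (103, 143, 107 and 116).

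The genes around the 75 in the same pathways held no call by label either. Of 57 listed genes of cytokine, Toll and NF-κB signalling that the symbols above do not cover, 23 were on the array and 15 were kept, with 0 higher and 0 lower at an adjusted p under 0.05 from limma and a median log2 fold change of 0.08. The cytokine gene mif had signals of 1244 in the normal pool and 2194 in the cold pool of set 1 and 2299 and 1517 in those of set 2, and hmgb1b, a chromatin protein that also acts as a danger signal, had 4459, 2385, 1772 and 2925. The IκB kinase genes chuk (270, 320, 321 and 192) and ikbkg (304, 421, 400 and 334) spanned less than 2-fold. For complement and acute phase genes, 14 of 30 were on the array and 5 were kept, and ceruloplasmin (cp) was low on normal 1, with 409 against 1068, 1566 and 1221. Of 27 genes of antigen processing, 15 were on the array and 14 were kept, with a median log2 fold change of 0.03. The cathepsin gene ctsba had 4286, 1668, 1856 and 3366 and ctsla had 1822, 1029, 943 and 1767, both high on normal 1 and cold 2. Of 26 further interferon-response genes, 8 were on the array and 6 were kept, and gbp, a guanylate-binding protein gene, had 306, 309, 331 and 286. In each of these lists 0 genes passed an adjusted p of 0.05 from limma, and 0 had an unadjusted p under 0.05.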

How the data were processed

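The authors hybridized brain RNA to 1-colour Affymetrix Zebrafish Genome Arrays and deposited 1 linear MAS5 signal (intensity) per probe set. The MAS5 version, scaling target and detection calls do not appear in the sources used here. MAS5 scales each array as a whole, which hides any shift shared by most transcripts. Of 15617 probe sets, 115 controls were left out. Log2 signals of the 9301 probe sets at or above the 40th percentile of mean signal entered limma 3.58.1, run in R 4.3.3 (unpaired, eBayes with a trend, Benjamini-Hochberg over all 9301), after a check on simulated arrays. Symbols came from the platform annotation. A current gene table (GRCz12tu, names only) held 73 of the 75 genes, all under the same symbol, and mhc1ufa and mhc1uda keep the name of the annotation. Genes named with all signals were, per role, up to 4 of highest mean signal, the 6 largest ratios in each set, the 6 smallest p and the 6 largest labelled changes, with some others chosen after their values were seen. Members, lists and roles were chosen with earlier results of these data known. Only 2 arrays per condition limit the precision. The alternatives are given in the closing section.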

Additional observations from a re-analysis of the deposited data

How the results depend on the processing

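Under each of the 13 alternatives, 0 of the immune genes tested passed an adjusted p of 0.05 from limma in either direction. A replicate block by array number, whose numbers share no stated experiment (correlation of same-numbered deviations -0.30 over 9301 probe sets), gave 0 calls and the same median log2 fold change of 0.04. A crossed replicate block, chosen after seeing the data, paired normal 1 with cold 2 and cold 1 with normal 2. With it, 0 immune genes and 1 of 9301 probe sets were called. An unadjusted p under 0.05 from limma was found for 122 probe sets, against 39 with the block by array number. Leaving out 1 array at a time, with the lone array assumed to vary like the other group, moved the median of the immune genes between 0.0067 and 0.086, the log2 fold change of lyz between -1.78 and 0.57 and that of mhc1zba between -1.84 and 0.074, both highest without normal 1. The sign also turned for ccl34b.1 (-1.32 to 0.54) and cxcl12a (-1.04 to 0.63) without normal 2 or cold 2, for socs3b (-0.63 to 0.73) without normal 2 or cold 2, and for il12bb (-0.70 to 0.88) without normal 1 or cold 1. Without normal 1, ccl19a.1 went from 0.48 to 0.047, c1ql3b from 0.55 to 0.20, irf2bpl from 0.45 to 0.15 and mhc1ufa from -1.11 to -0.71. Without cold 1 relb went from -0.46 to -0.23, without cold 2 irf1b went from 0.40 to 0.21, and without normal 2 b2m went from 0.17 to 0.052. The count at least 2-fold higher on cold 1 was 2 after quantile normalization, 2 after median centring and 7 with no filter, against 4. The count at least 2-fold lower on cold 1 was 3 with a filter at the 60th percentile, against 6. The count at least 2-fold higher on cold 2 was 1 with 16 added to the signal and 1 with the filter at the 60th percentile, against 2. Fewer or more genes entered with the filters, at 28 and 75 against 46. The other causes were not tested. The values of ccl34b.1, cxcl12a, il12bb, socs3b, irf1b and b2m here, and the use of the other cxcl12a probe set, were added after seeing the data. With 2 arrays a group, only large and even changes can be called.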

Other observations

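Besides cxcl12a and mpx, irf2bp2b was measured by 2 probe sets kept by the filter whose orders over the arrays differed. The probe set used had signals of 641 in the normal pool and 503 in the cold pool of set 1 and 359 and 461 in those of set 2, and the other had 141, 130, 195 and 155, so that normal 2 was the lowest array for one and the highest for the other. The further probe set of tnfrsfa with the highest signal had 115, 93.0, 119 and 86.6, lower on both cold arrays, where the probe set used had 106, 110, 119 and 120. Among the genes below the filter, tnfsf10l, mhc2daa and tnfrsf19 reached 2-fold or more in set 1 (cold over normal), and none did in set 2. The signals of tnfrsf19 were 7.11, 14.7, 12.2 and 9.86.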
